A study of Mus musculus with 574 samples.

Results

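The cells described here are granulocyte-macrophage progenitors (GMPs) sorted from the bone marrow of C57Bl/6 mice on day 10 after 1 dose of 5-fluorouracil (5-FU, 150 mg/kg), a drug that kills dividing cells. The mice were 6 to 12 weeks old. GMPs were taken as cells negative for lineage antigens and Sca-1 and positive for c-Kit, CD34 and the Fcγ receptor, after enrichment on c-Kit beads. Each was sorted into a well of its own, made into cDNA with Smart-seq2 and sequenced after Nextera XT tagmentation. The labels name 96 such wells on day 10. A cell was a member if 50000 or more of its reads lay in mouse genes and 1000 or more genes had a read, which kept 93 of the 96 cells. The whole series holds 573 cells with a column in 6 sets, and 500 of them passed the same rule. The sets of days 8, 12 and 14 are listed with the same dose of 150 mg/kg, and that of day 0 with no dose. Mice of these sets are also listed as 6 to 12 weeks old. The cells left out, numbered 16, 42 and 48, had 46372, 40955 and 42613 reads in genes, while the 3 just inside the limit, numbered 77, 47 and 38, had 50015, 55827 and 57637.

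The 93 cells come from 1 set on 1 day, so they are not replicates of a condition and no test was made from them. The number of mice behind them is not given, and the labels mention crushing and flushing of bones without saying which gave this set. Xist, the RNA of the inactive X chromosome, had a read in 0 of 93 cells, which allows a share of up to 3.23%. Without thinning 3 cells had one. The Y-linked Eif2s3y had a read in 72 of the 93.

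GMPs are the marrow progenitors that give rise to neutrophils and monocytes. On the way to the neutrophil they fill their primary granules with myeloperoxidase and a family of serine proteases, and only later make the proteins of secondary granules. The transcription factors C/EBPα, C/EBPε and Gfi1 are known for the granulocyte branch, and Irf8 and PU.1 for the monocyte branch. Lipocalin 2 (Lcn2) is an iron-siderophore binding protein of neutrophil granules, neutrophil elastase (Elane) is a primary granule protease, and Cxcl10 is a chemokine made in response to interferon. These genes were given as markers of the set.

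Reads in genes per cell ranged between 50015 and 1946466 with a median of 224022. To give every cell the same depth, the reads of each were thinned at random to 50000, and all read numbers that follow are per 50000 reads in genes unless said otherwise. After thinning a cell held between 2706 and 6627 genes, with a median of 5508. The number of thinned genes still went with the original depth, with a Spearman correlation of 0.61 over the 93 cells. A large share of the reads went to Slc34a2, a phosphate transporter gene of lung and gut epithelium, which took 3.15% to 49.2% of a cell's reads in genes with a median of 13.4%. That share was larger in shallow cells (Spearman correlation with reads in genes −0.84) and in cells with few genes (−0.72). The 50000 reads of a cell include those of Slc34a2, so the reads left for other genes differed between cells. Its part in the other results was not tested, beyond recomputing some of them without it. Correlations are given with both depth and gene number held constant, but the Slc34a2 share was not. With Slc34a2 and CT010467.1 removed and 91 cells thinned to 25000 reads, the list medians described further on were 0.33 for granule, 0.38 for monocyte, 0.18 for replication and 0.20 for mitosis genes.

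The markers of the gate were found as RNA in most cells. Fcgr3, which encodes a low-affinity Fcγ receptor, had a read in 87 of 93 cells and ranged between 0 and 62 reads with a median of 14. Cd34 had a read in 84 cells (median 12, highest 110) and Kit, the receptor for stem cell factor, in 75 (median 3, highest 17). The gene of Sca-1, Ly6a, had a read in 10 of 93 cells, or 10.8% (95% exact binomial interval 5.28% to 18.9%), and at most 7 reads. Slamf1, the gene of CD150, had a read in 5 cells and Itgam, the gene of the lineage antigen Mac-1, in 17. Intervals here and elsewhere cover counting error only, since reads without molecular identifiers include PCR copies.

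Elane, at chr10:79886247-79888215 on the plus strand of GRCm38, was read in all 93 cells. It ranged between 9 and 2020 reads with a median of 430, and the middle of the distribution lay between 151 and 838. Every cell therefore had reads of the transcript, but at levels that spanned more than 2 orders of magnitude. The low end included cells 81, 38 and 77, which held the fewest genes after thinning (2706, 2801 and 3067). They had 26, 14 and 18 Elane reads. Whether low values came from poor libraries or from RNA carried between wells was not tested. Lcn2, at chr2:32384633-32388252 on the minus strand, was read in 71 of 93 cells, or 76.3% (66.4% to 84.5%), and in 83.9% when all reads were used. It ranged between 0 and 39 reads with a median of 5, so the cells formed a broad low distribution with no separate high cell. Cxcl10, at chr5:92346638-92348889 on the minus strand, was read in 16 of 93 cells, or 17.2% (10.2% to 26.4%), and in 27.96% without thinning. Its highest cell, number 71, held 579 reads, which was 92.05% of all Cxcl10 reads in the set, and the second highest held 27. The Cxcl10 of these GMPs was therefore the chemokine of 1 cell with 27 reads or fewer in each of the 15 others that had any.

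**Figure D1:**
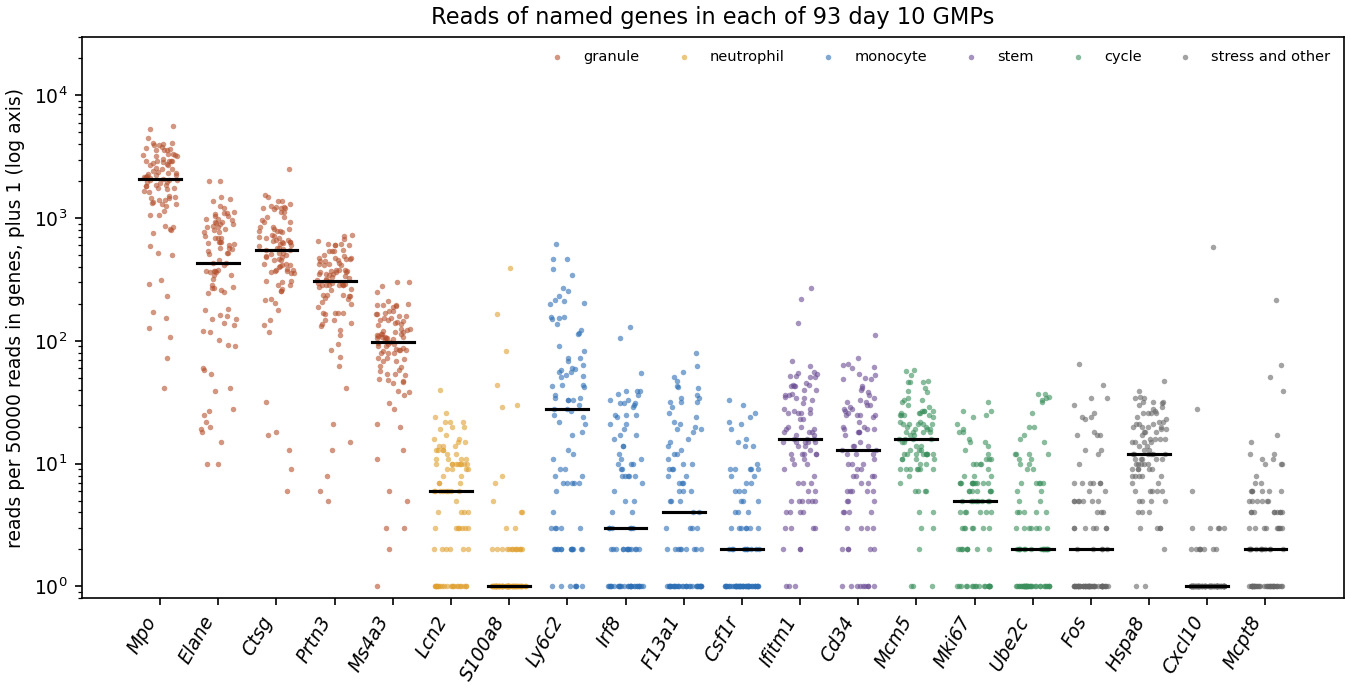
Reads per 50000 in genes, plus 1, on a log axis for 20 genes in each of the 93 day 10 GMPs; each point is a cell and each black bar is the median. Mpo, Elane, Ctsg and Prtn3 were read in all 93 cells, while Cxcl10 had 579 reads in 1 cell and 27 in the next, and levels of different genes cannot be compared because longer genes give more reads.

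In the other sets, set side by side and without a test, Lcn2 was read in 22.8% of kept day 0 cells, 71.1% and 55.9% in the day 8 sets, 76.3% in the day 10 set, 31.8% in the day 12 set and 34.04% in the day 14 set. For Cxcl10 the shares in the same order were 16.3%, 14.4%, 7.53%, 17.2%, 7.06% and 6.38%. Elane was read in at least 95.6% of cells in every set. Each day other than day 8 is 1 set, so a difference between days cannot be told apart from any other difference between sets, such as in the mice used. Sex-linked reads also differed between sets. Xist was read in 84.8% of day 0 and 91.8% of day 12 cells, against 0% in the day 10 set. Eif2s3y was read in 2.17% and 7.06% of those cells, against 77.4% in the day 10 set.

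Of the 46078 genes in the table, 19866 had a thinned read in at least 1 of the 93 cells. A total of 8627 were read in at least 20% of cells, 4657 in at least 50%, 1081 in at least 90% and 122 in every cell. Another 7420 had a read in fewer than 5% of cells.

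The granule genes of the GMP were the most widely read of the lineage groups. Of 20 genes on a list of primary granule and granulocyte priming genes, 19 were in the table, 18 were read in at least 20% of cells and 15 in at least 90%. Myeloperoxidase (Mpo) ranged between 40 and 5575 reads with a median of 2065. Cathepsin G (Ctsg) ranged between 5 and 2518 with a median of 551, and proteinase 3 (Prtn3) between 4 and 730 with a median of 309. All 3 were read in every cell, as were Calr, a chaperone of the endoplasmic reticulum (median 114), and Srgn, the proteoglycan core that packs granule proteases (median 115). The summed reads of the list ranged between 159 and 9979 per cell with a median of 4142. The regulators on the list were read in fewer cells. Cebpa was read in 70 of 93 (median 3, highest 36), Gfi1 in 61 (median 1, highest 18) and Cebpe in 40 (median 0, highest 22).

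Later neutrophil genes were mostly unread. Of 15 genes on the late neutrophil list, the secondary granule genes Ltf and Ngp and the integrin Itgb2l had 0 thinned reads in all cells, Camp was read in 1 cell and Ly6g in 2. Lysozyme (Lyz2) was read in 83 cells (median 12, highest 171), and Fcer1g, the signalling chain of Fc receptors, in 92 (median 12, highest 82). Both are shared with monocytes. The calprotectin genes were concentrated in few cells. S100a8 was read in 26 cells with a highest value of 394, and S100a9 in 7 with a highest value of 137. The summed reads of the list ranged between 5 and 552 with a median of 45.

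Monocyte genes ran over a wide range. Of 22 listed, 15 were read in at least 20% of cells, and the summed reads ranged between 9 and 996 with a median of 113. Ly6c2, which encodes the Ly-6C surface antigen of monocytes and their precursors, was read in 86 of 93 cells and ranged between 0 and 615 with a median of 27. Irf8 was read in 65 cells and ranged between 0 and 129 with a median of 2. F13a1, the A chain of coagulation factor XIII and a marker of monocyte precursors, was read in 61 cells (median 3, highest 79), the chemokine receptor Ccr2 in 57 (median 2, highest 36) and the M-CSF receptor Csf1r in 47 (median 1, highest 32). The lower quartile was 0 reads for Irf8, F13a1 and Csf1r alike, while the upper quartile was 16 reads for Irf8, 15 for F13a1 and 5 for Csf1r. Genes of later stages were rare, with Klf4 in 3 cells and Cd74 in 2.

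Of 25 listed genes of stem and multipotent cells, 16 were read in at least 20% of cells and 10 in at least 50%. Ifitm1, an interferon-induced membrane protein gene that is also high in stem cells, was read in 90 of 93 cells (median 15, highest 266), Ifitm3 in 85 (median 11, highest 96), the transcriptional cofactor Lmo2 in 89 (median 14, highest 54), Muc13 in 74 (median 5, highest 45) and the adhesion receptor Adgrg1 in 70 (median 3, highest 76). The homeobox gene Meis1 was read in 62 cells, the receptor gene Flt3 in 17, Hlf in 13 and Mecom in 7.

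Markers of most other cell types were near 0 in most cells. The haemoglobin genes Hbb-bs, Hba-a1 and Hba-a2 had 0 reads in all 93 cells, and the summed erythroid list of 13 genes had a median of 3 reads and a highest value of 204. The lymphoid genes Dntt, Il7r and Cd79a and the natural killer cell genes Klrb1c and Ncr1 had 0 reads, as did the dendritic cell genes Irf4, H2-Aa and Cd209a and the endothelial gene Cdh5. The 12 lymphoid genes summed to between 0 and 76 reads (median 6), of which Ighm, the constant region of the μ heavy chain, was read in 70 cells. The 12 T and natural killer cell genes summed to between 0 and 201 (median 50), nearly all of it Nkg7, which is also on the granule list and was read in 92 cells. The 11 dendritic cell genes summed to between 0 and 29 (median 5) and the 12 stromal and endothelial genes to between 0 and 15 (median 2). The 9 megakaryocyte genes summed to between 0 and 85 (median 2, with Gp6 at 0 in all cells) and the 8 eosinophil genes to between 0 and 354 (median 1, with Ear1, Ear2 and Il5ra at 0). Of the 13 mast cell and basophil genes, 3 were read in at least 50% of cells and 8 in fewer than 5%. The basophil protease Mcpt8 was read in 58 of 93 cells (median 1, highest 213) and the histidine decarboxylase gene Hdc in 73 (median 3, highest 91), while the mast cell proteases Cma1 and Tpsb2 had 0 reads in all cells. The 13 genes of that list summed to between 0 and 956 with a median of 15.

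Cell cycle genes were read in most cells. Of 37 genes of DNA replication, all were read in at least 20% of cells and 14 in at least 90%. The replicative helicase subunits Mcm6 (92 cells, median 27, highest 97) and Mcm5 (90 cells, median 15, highest 57) were among the most widely read. Of 42 genes of mitosis, all were read in at least 20% of cells and 5 in at least 90%. Mki67, which encodes the proliferation antigen Ki-67, was read in 74 cells (median 4, highest 31), topoisomerase Top2a in 82 (median 7, highest 54) and the mitotic ubiquitin-conjugating enzyme Ube2c in 59 (median 1, highest 36). Summed over the lists, replication genes ranged between 20 and 537 reads per cell (median 275) and mitosis genes between 15 and 619 (median 146). How fast the cells divided, or whether the population grew, was not measured in these files.

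Variation was measured as the squared coefficient of variation across the 93 cells. The 8627 genes read in at least 20% of cells were ranked by how far, on the log2 scale, it lay above the trend at the same mean. The 25 genes that ranked highest fell into a few kinds. Some were carried by a few cells. S100a8 came first, 5.67 above the trend, with 50.5% of its reads in cell 27, and was followed by Apoe, the apolipoprotein E gene (4.76, 43.4% of reads in cell 73), and Mcpt8 (4.31, 35.9% in cell 47). The carbonic anhydrase gene Car2, the Ikaros family gene Ikzf2, the mannosidase-like gene Edem3, the interferon-induced GTPase Igtp and the transcriptional cofactor Lmo4 likewise had between 27.8% and 46.2% of their reads in 1 cell.

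Other variable genes were spread over many cells, and these were mostly of the lineage groups. Ly6c2 lay 3.81 above the trend with 9.39% of its reads in the highest cell, Elane 3.01, Ifitm1 2.89, Irf8 2.72, Mpo 2.59, Ctsg 2.46, the lysosomal protein gene Psap 2.38 and Lyz2 2.31. The serine protease inhibitor Serpina3g (3.77), the thioredoxin-binding protein gene Txnip (2.71), the whey acidic protein family gene Wfdc21 (2.38) and the immediate early gene Fos (2.28) were also among the 25. Of the rest, I830127L07Rik is a pseudogene next to Ly6c2 that may share its reads, and Gm16010 is an antisense gene whose reads cannot be assigned by strand. Gm26917, a long noncoding RNA gene read in every cell, and Lars2, a mitochondrial leucyl-tRNA synthetase gene, completed the list with Slc34a2. Membership of the 25 depended on the measure, as the closing section shows. Ly6c2, Gm26917, Elane and Irf8 were among the 25 under each of the 6 other settings tried.

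Spike-in RNA counted in the same wells gives a measure of the variation of the assay, though the amount added per well is not given in the sources used here. A curve through 36 spike-ins, scaled in each cell to their median total of 3895 reads, put the squared coefficient of variation of Elane at 34.3 times that of a spike-in with the same mean, that of Mpo at 35.3 times, Ctsg at 24.9 times and Ly6c2 at 22.3 times. For Irf8 the ratio was 4.37 and for Fos 2.60. Of 181 genes with a mean of at least 20 reads, 111 lay above the spike-in curve, and the median ratio over all 181 was 1.13. The median well-read gene therefore varied about as much as a spike-in. Slc34a2 had the highest ratio of the 181 (55.7), CT010467.1 stood at 24.2, Gm26917 at 23.3, the mitochondrial ribosomal RNA gene mt-Rnr2 at 21.4 and Prtn3 at 10.1, so high ratios were not limited to lineage genes.

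Gene-gene correlation was computed as the partial Spearman correlation of thinned reads across the 93 cells, with the reads in genes and the number of genes per cell held constant. Over all 37208251 pairs of the 8627 genes the median was 0.01, and 95% of pairs lay between −0.20 and 0.22. Among the 1081 genes read in at least 90% of cells the median was 0.05 and the range −0.20 to 0.29. These values are the background against which the groups can be read. They describe 93 cells of the same set, and the mouse, sort and plate of each cell are not given in the labels.

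Granule genes went up and down together from cell to cell. The median over the 153 pairs of the list was 0.39, and 139 pairs were above 0, with 95 above 0.3. Ctsg correlated with Ms4a3, a membrane protein gene of GMPs, at 0.83, with Srgn at 0.80 and with Elane at 0.79. The lowest pairs involved Cebpa, at −0.18 with Ctsg and −0.13 with Ms4a3. Elane had as its nearest genes Ctsg (0.79), the glutathione transferase Gstm1 (0.77), Nkg7 (0.73), Srgn (0.72) and Ms4a3 (0.69) among the 4656 other genes read in at least 50% of cells. Opposite to it were the endophilin gene Sh3glb1 (−0.53), Ifitm3 (−0.43) and the surface antigen gene Cd48 (−0.42). The stretch before the start of Elane is shown with matches to 2 motifs of factors known in these cells, C/EBP (TTGCNNAA) and PU.1 (GAGGAA), searched on both strands of GRCm38 sequence from RefSeq. The capitals mark 1 PU.1 match, and no C/EBP match was found in the 185 bases of chr10:79886062-79886246 on the plus strand.
Elane: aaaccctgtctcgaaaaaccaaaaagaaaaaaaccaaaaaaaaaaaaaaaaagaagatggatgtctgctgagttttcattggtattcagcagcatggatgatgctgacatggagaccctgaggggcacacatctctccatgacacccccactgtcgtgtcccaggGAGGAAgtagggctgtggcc
Over all 27025 genes with a window of 250 bases before a start, 25.9% held the PU.1 letters and 10.8% the C/EBP letters. On the granule list it was 5 and 2 of the 15 genes with a window.

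The nearest genes of Lcn2 were the granule protease Prss57 (0.56), Srgn (0.52), Nkg7 (0.51), Gstm1 (0.50) and Rgcc, a cell cycle regulator gene (0.50), and its correlation with Elane was 0.43, or 0.22 to 0.55 under other settings. Lowest for Lcn2 were Golga7 (−0.36), 1700097N02Rik (−0.35) and the surface antigen gene Cd52 (−0.34). Within the late neutrophil list 5 genes passed the 20% filter, and the median of their 10 pairs was 0.01. Fcer1g with Lyz2 stood at 0.47, while Lcn2 with Fcer1g stood at −0.13.

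Monocyte genes formed a second group. The median over 105 pairs was 0.36, all 105 were above 0 and 71 were above 0.3. The highest pairs were Irf8 with Emb, which encodes the membrane glycoprotein embigin (0.77), Irf8 with F13a1 (0.71) and F13a1 with Emb (0.69). The lowest were Zeb2 with Ctss (0.01) and with Psap (0.02). Outside the list the nearest genes of Irf8 were Ighm (0.72), Tifab, a regulator of innate signalling (0.69), and Ms4a6c (0.64). Opposite to Irf8 were the tetraspanin Cd63 (−0.55), its pseudogene Cd63-ps with the same value, which may share reads, and the ubiquitin ligase Nedd4 (−0.47). F13a1 is shown with the same motifs because it was among the 3 highest pairs. The capitals mark 1 PU.1 match in the 250 bases of chr13:37050245-37050494 on the minus strand.
F13a1: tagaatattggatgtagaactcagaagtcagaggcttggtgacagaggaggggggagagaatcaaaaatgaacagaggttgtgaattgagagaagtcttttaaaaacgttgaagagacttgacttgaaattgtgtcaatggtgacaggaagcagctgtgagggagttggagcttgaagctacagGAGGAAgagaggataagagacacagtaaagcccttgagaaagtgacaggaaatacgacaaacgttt
The 250 bases before Irf8, at chr8:120736108-120736357 on the plus strand, held 0 matches to either motif. Of the 17 monocyte genes with a window, 7 held the PU.1 letters and 2 the C/EBP letters.

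Between the granule and monocyte groups the picture was mixed. The median over 270 pairs was −0.03, with 145 below 0, and other settings put it between −0.09 and 0.04. Irf8 ran opposite to Cebpe (−0.54) and to Nkg7 (−0.43). Ly6c2, in contrast, went with granule genes, at 0.58 with the haptoglobin gene Hp, 0.58 with Prtn3 and 0.49 with Elane. Ly6c2 was thus tied to both groups, and Irf8 to the monocyte group. Irf8 and Elane correlated at −0.10. Among the fate regulators Irf8 with Gfi1 stood at −0.21, Irf8 with Myb at −0.30 and Cebpe with Myb at 0.30. At 50000 reads 44 of 93 cells held reads of both Irf8 and Gfi1, 21 held Irf8 alone, 17 Gfi1 alone and 11 neither. Were the genes read independently, 42.6 cells would hold both. With all reads 64 cells held both. At 50000 reads Irf8 and Cebpe were both read in 19 cells, against 27.96 if independent, with Irf8 alone in 46 and Cebpe alone in 21. With all reads both were read in 46, against 47.03 if independent, with Irf8 alone in 35 and Cebpe alone in 8. Of the receptors, Csf1r went with the interleukin 6 receptor genes Il6ra (0.49) and Il6st (0.30). Reads of both Csf1r and the G-CSF receptor Csf3r were held by 35 cells, against 35.4 if independent.

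The stem cell list was weakly tied together, with a median of 0.10 over 120 pairs, 20 of them above 0.3. Among the highest, Adgrg1 with Muc13 stood at 0.57, Cd34 with Ifitm1 at 0.56 and Ifitm1 with Ifitm3 at 0.51 (0.26 to 0.59 under other settings), while Sox4 with Kit stood at −0.24. Against the granule list the median was −0.08, and 196 of 288 pairs were below 0. The lowest of these were Ifitm3 with Srgn (−0.50) and with Nkg7 (−0.45). Cd34 ran opposite to Prtn3 (−0.42), though a Pearson correlation of log2 values with a pseudocount of 1 gave −0.09. Against the monocyte list the median was also −0.08, but the ends went both ways. Ly6c2 with Adgrg1 stood at −0.63, among the lowest values of any named pair, while Ifitm3 with Emb stood at 0.51 and with Irf8 at 0.47. Within the gate itself Cd34 with Cd48 stood at 0.46, Fcgr3 with Fcgr2b at 0.36 and Cd34 with Fcgr3 at −0.20.

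**Figure D2:**
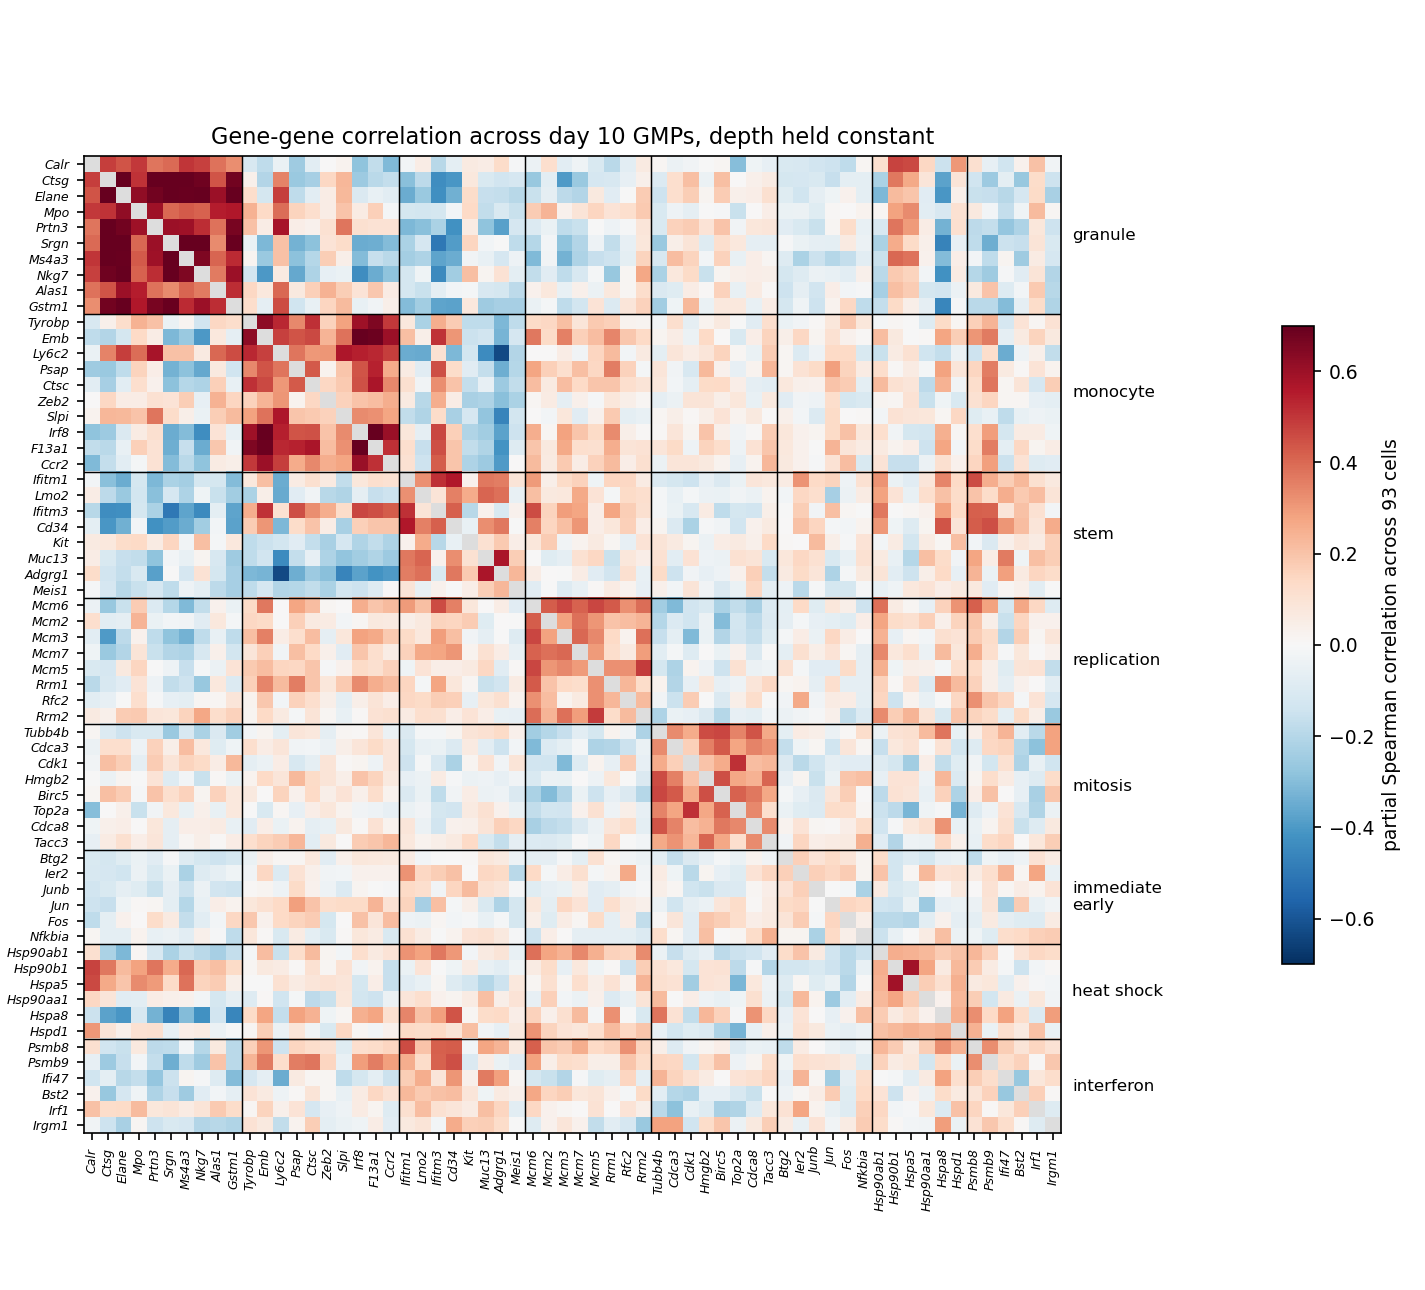
Partial Spearman correlation across the 93 day 10 GMPs, with reads in genes and genes per cell held constant, for members of 8 gene lists (rows and columns in the same order, red above 0, blue below 0, grey on the diagonal). Granule and monocyte genes form the darkest red blocks, mitosis and replication genes each form a paler one, and the immediate early block is near white.

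**Figure D3:**
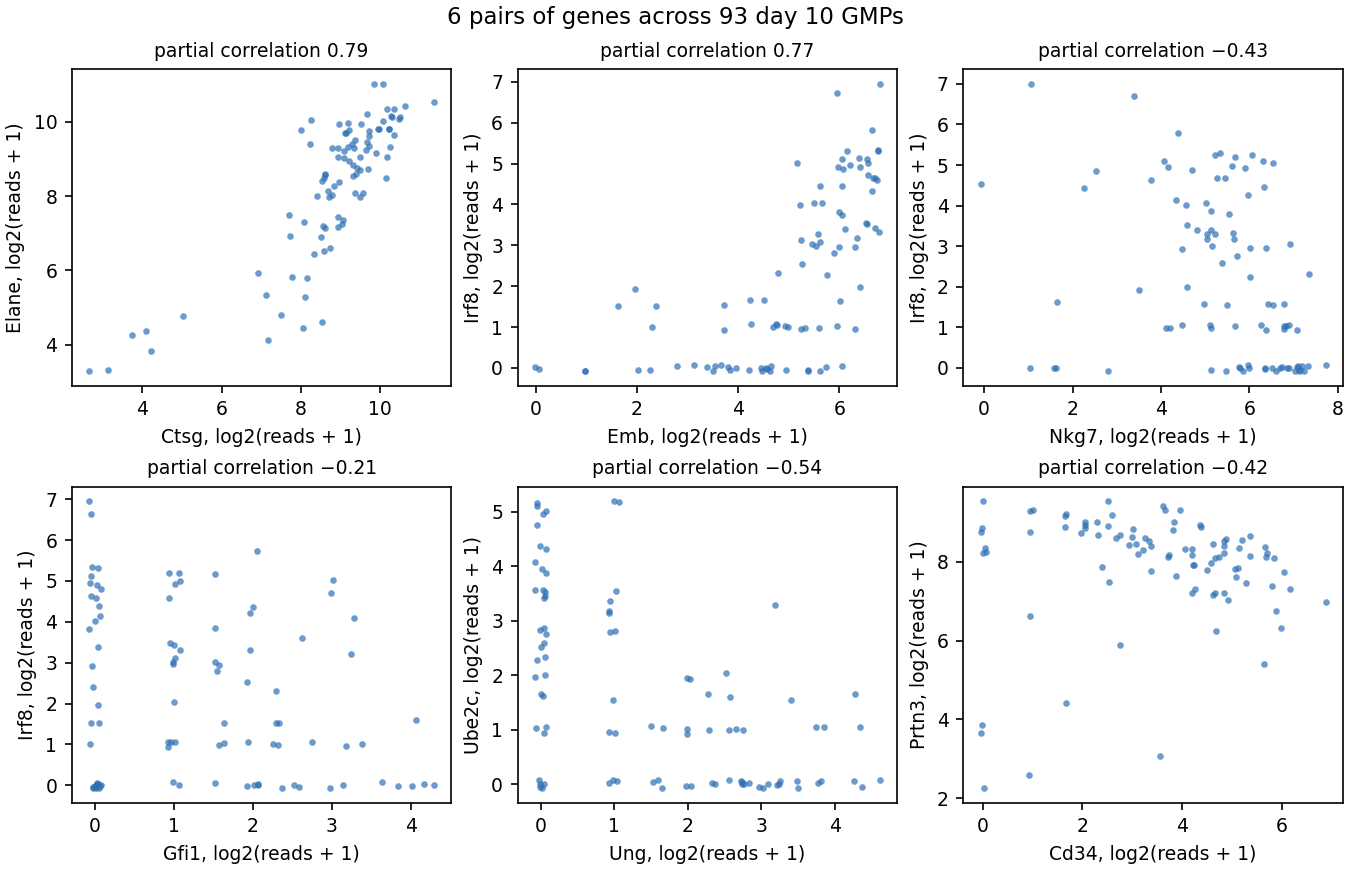
Log2(reads per 50000 + 1) of 6 pairs of genes, 1 point for each of the 93 day 10 GMPs, shifted at random by a small amount so that equal values can be seen. Elane with Ctsg and Irf8 with Emb run together at 0.79 and 0.77, while Irf8 with Nkg7, Ube2c with Ung and Prtn3 with Cd34 run opposite at −0.43, −0.54 and −0.42, and Irf8 with Gfi1 is loose at −0.21.

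The replication and mitosis lists each held mostly positive correlations. The median within the mitosis list was 0.23, with 826 of 861 pairs above 0, and within the replication list 0.18, with 618 of 666 above 0. Between them it was weakly negative at −0.11 (−0.15 to −0.05 under other settings), with 1262 of 1554 pairs below 0 and 91 below −0.3. The highest pairs within mitosis were Cdc20 with Cenpa (0.64), Ube2c with Hmmr (0.63) and Plk1 with Hmmr (0.62), all genes of the spindle and its checkpoints. Within replication they were Mcm5 with Uhrf1, a factor that maintains DNA methylation at the fork (0.54), Mcm6 with the licensing factor Cdt1 (0.52) and Ung with Uhrf1 (0.50). Ube2c ran opposite to Mcm6 and to the uracil-DNA glycosylase Ung, both at −0.54. Mki67 had as its nearest genes Tubb4b (0.47), Ube2c (0.45), Top2a (0.44), Hmmr (0.43) and Tubb5 (0.42). For Mcm5 they were Uhrf1 (0.54), the ribonucleotide reductase subunit Rrm2 (0.49), Ung (0.47), Mcm6 (0.47) and Hat1 (0.44), and its lowest was Cdc20 (−0.32, or −0.39 to −0.15 under other settings). The median of granule with replication genes was 0.01, and that of granule with mitosis genes was 0.00.

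The stretches before Mcm6, Ube2c and Cdc20 are shown because these genes stood at the ends of the cycle correlations. They lie at chr1:128359706-128359955 on the minus strand, chr2:164769679-164769897 on the plus strand and chr4:118437353-118437593 on the minus strand of GRCm38. Capitals mark the E2F letters TTTGGCGC (TTTCCCGC was also searched) in Mcm6, and the letters CCAAT or the CHR letters TTTGAA in the others, on either strand.
Mcm6: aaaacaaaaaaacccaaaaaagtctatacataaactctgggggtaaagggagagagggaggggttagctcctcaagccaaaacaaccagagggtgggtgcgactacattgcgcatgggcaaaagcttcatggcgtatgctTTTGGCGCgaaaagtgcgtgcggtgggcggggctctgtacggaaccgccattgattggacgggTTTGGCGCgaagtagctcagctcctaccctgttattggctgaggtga
Ube2c: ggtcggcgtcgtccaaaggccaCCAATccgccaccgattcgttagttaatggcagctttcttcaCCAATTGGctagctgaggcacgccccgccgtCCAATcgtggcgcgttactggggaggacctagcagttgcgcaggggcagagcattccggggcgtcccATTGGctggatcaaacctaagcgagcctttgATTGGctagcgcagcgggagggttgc
Cdc20: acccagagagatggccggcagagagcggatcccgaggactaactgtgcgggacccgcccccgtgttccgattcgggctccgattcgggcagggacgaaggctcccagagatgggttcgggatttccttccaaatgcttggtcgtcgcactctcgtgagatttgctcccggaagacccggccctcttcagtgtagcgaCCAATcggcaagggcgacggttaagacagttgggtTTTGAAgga
Mcm6 held 2 E2F matches, Ube2c held 6 CCAAT matches, 2 of which overlap on opposite strands, and no CHR match, and Cdc20 held 1 of each. The E2F letters were in 7 of 29 replication genes with a window, against 1.51% of all genes. CCAAT was in 29 of 36 mitosis genes against 37.5% of all, and CHR in 15 of 36 against 18.3%. A match describes these letters and shows no binding.

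Stress genes were less organised. Immediate early genes were read in part of the cells, with Ier2 in 65, Junb in 54, Jun in 49 and Fos in 47 of 93. Fos ranged between 0 and 64 reads with a median of 1. Egr1 was read in 4 cells and Egr3 in 0. The median over 78 pairs was 0.06 and 0 pairs exceeded 0.3, the highest being Ier2 with Ier3 (0.27) and Fos with Jund (0.25). Fos had no close neighbour, its nearest genes including the kinase Pink1 (0.40), Nipbl (0.39), Ncapd2 (0.37) and Ppil2 (0.34), with Gm14681 lowest (−0.36). Reads of Btg2, an antiproliferative gene on that list, moved with depth, with a Spearman correlation of −0.56 with reads in genes.

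Heat shock and chaperone genes had a median of 0.10 over 105 pairs, against 0.21 when depth and gene number were not held constant. The tie within them was in the endoplasmic reticulum, where Hspa5 (BiP) stood at 0.59 with Hsp90b1 (Grp94) and at 0.48 with the disulphide isomerase Pdia4. Hspa5 was read in 92 cells with a median of 68 and a highest value of 234. The cytosolic heat-inducible Hspa1a was read in 29 cells (highest 22), though its near copy Hspa1b can share reads, and Hspb1 in 0. Across lists, the reticulum chaperone Hsp90b1 went with the granule list member Calr (0.47), itself a chaperone, while the cytosolic Hspa8 ran opposite to Srgn (−0.47) and to Elane (−0.41). The nucleolar genes Ncl and Npm1 stood at 0.58, the highest pair among 253 of ribosome biogenesis, which had a median of 0.16. Targets of p53 had a median of 0.03 over 66 pairs, and amino acid stress genes one of 0.05 over 91.

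Interferon response genes ranged from some found in most cells to some found in few. Of the 40 listed, 8 were read in at least 50% of cells and 10 in fewer than 5%, with the rest between. The immunoproteasome genes Psmb8 (93 cells, median 17, highest 41) and Psmb9 (81 cells, median 4, highest 18) and Ifitm3 were widely read, and Ifitm3 with Psmb8 stood at 0.42 and with Psmb9 at 0.41. Some antiviral genes were rare, with Usp18 in 8 cells, Ifit1 in 4, Mx1 in 3 and Isg15 in 2 of 93. The median over the 171 pairs of the 19 genes past the filter was 0.07.

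Several of the rare transcripts met in the same cells. The 6 cells described next were picked after values were seen, because each held the most reads of S100a8, Apoe, Mcpt8, Car2, Cxcl10 or Prg2, and the genes named in them lie outside the rule for named genes unless already mentioned. Cell 71, the Cxcl10 cell, had the highest value of the set, ties included, for 19 of the 39 interferon genes read in any cell. How often this cell was highest over all genes was not counted. Its list sum was 537 reads, against 179 in the next cell and a median of 67. It held 44 reads of the deubiquitinase Usp18, 35 of Igtp, 96 of Ifitm3 and 264 of Serpina3g, and kept 1622 of Mpo and 59 of Elane. The upstream stretch of Cxcl10 is shown with a match to the interferon-stimulated response element in capitals (GAAA, any 2 bases, GAAA), at chr5:92348890-92349139 on the minus strand.
Cxcl10: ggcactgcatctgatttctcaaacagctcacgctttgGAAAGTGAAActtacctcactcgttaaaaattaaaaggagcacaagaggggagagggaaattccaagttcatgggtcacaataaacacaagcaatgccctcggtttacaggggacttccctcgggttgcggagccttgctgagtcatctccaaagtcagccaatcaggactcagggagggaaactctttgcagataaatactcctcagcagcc
Of 30 interferon genes with a window 14 held these letters, against 3.46% of all genes.

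Cell 27 had the highest sums of the granule and late neutrophil lists. The granule sum was 9979 reads (next 9118). The late neutrophil sum was 552 (next 226), of which 394 were S100a8, by which the cell was picked, and 137 S100a9. The cell held 2518 reads of Ctsg, 0 of Irf8 and 1 of Lcn2. Its depth was 522015 reads in genes.

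The other 4 cells held transcripts of further myeloid and erythroid lineages. Cell 47 held 589 reads of Cpa3, the mast cell carboxypeptidase, or 84.4% of the set's, with 213 of Mcpt8, 60 of the basophil protease Prss34 and 73 of the transcription factor Gata2. Its mast cell and basophil sum was 956, against 142 in the next cell. Cell 73 held 29 reads of the erythroid factor Klf1, 64 of Car1, 14 of Gata1 and 194 of Apoe, and had the lowest Mpo of the 93 (40) and the lowest Elane (9, a value it shared with cell 89). It also had the highest value, ties included, of 12 of 42 mitosis genes, with a mitosis sum of 619 against 477 in the next cell. Cell 34 had the highest value of the megakaryocyte genes Pf4, Itga2b and Gp9, the last of them tied with cell 47. Its sum over that list was 85 against 33 in the next cell, and it held 81 reads of Car2. Cell 6 held 291 reads of the eosinophil granule gene Prg2, or 98.6% of the set's, and 63 of Prg3, together with the highest Ifitm1 of the set (266) and the highest Cebpe (22). Cells 47 and 34 were shallow, with 55827 and 63828 reads in genes, and doublets were not called, so more than 1 cell in a well was not tested.

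**Figure D4:**
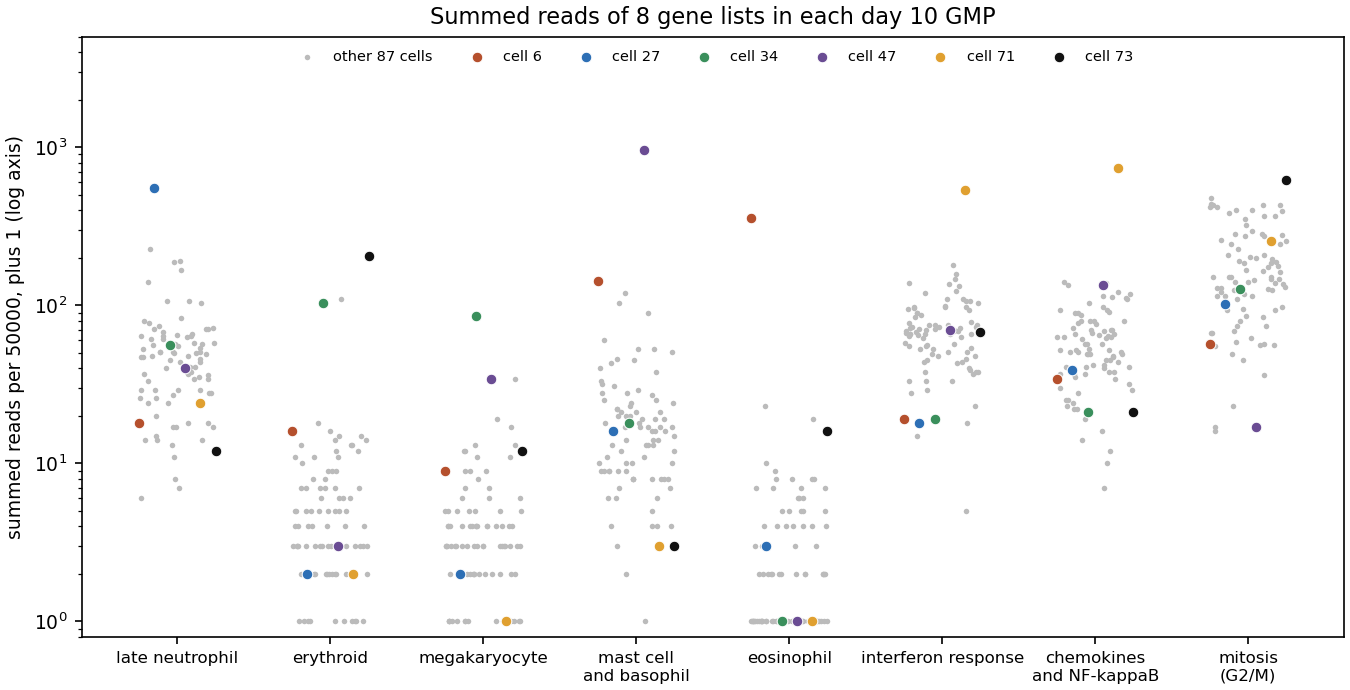
Summed reads per 50000, plus 1 (log axis), of 8 gene lists in each of the 93 day 10 GMPs, with 6 cells chosen after values were seen in colour and the other 87 in grey. Each coloured cell is highest for a different lineage or response list, and cell 71 is highest for both interferon and chemokine genes at 537 and 739 reads. Some sums include the gene by which the cell was picked. S100a8 gave 394 of 552 late neutrophil reads in cell 27 and Cxcl10 579 of 739 chemokine reads in cell 71. Prg2 gave 291 of 354 eosinophil reads in cell 6 and Mcpt8 213 of 956 mast cell and basophil reads in cell 47.

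The main axes of variation were also taken over the variable genes as a whole. In a principal component analysis of the 1000 most variable genes the first component held 5.63% of the variance and had Spearman correlations of −0.78 with genes per cell, 0.77 with the Slc34a2 reads and −0.57 with reads in genes. Slc34a2, Scn4b, Map3k1, Foxl1, mt-Rnr2, Auts2, CT010467.1 and mt-Nd4 led 1 end, and Ly6e, Tubb5, Emb, Arhgdib, Tuba4a, Lamp1, Cct8 and Arl6ip1 the other. The second component held 3.50% and correlated at −0.21 with genes per cell. It ran between Elane, Gstm1, Ctsg, Clec12a, Prtn3, Gstm2-ps1, B4galt6 and Fcgr3 at 1 end and Sh3glb1, Ctla2a, Mfge8, Apoe, Serinc3, Eng, Mrm1 and Slc18a2 at the other. The third held 3.45%, correlated at −0.30 with reads in genes, and ran between Ly86, Irf8, Ifi209, Ighm, Rasa4, Dhrs3, Mefv and Ms4a6c and Cd63-ps, Nedd4, Cd63, Nkg7, Adgrg1, Srgn, Pglyrp1 and Cpne2.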

How the data were processed

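The deposited values were whole-number counts of reads per gene and cell, not normalized. The authors aligned reads with GSNAP to mm10 and counted them with HTSeq 0.5.3p3, per the submitters' processing notes. The annotation release is not given in the sources used here. Smart-seq2 and Nextera XT do not mark strand. In the median day 10 cell 89.1% of reads fell in 5 rows that name no gene, and ambiguous reads made up 13.3% of gene and ambiguous reads together. These rows and 92 spike-ins were left out of gene totals. Of the day 10 cells 0 pairs were identical, no doublet caller was run, and 1 column of the series matched no label and was not used.

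Genes were matched by ID to GENCODE vM21, with a symbol for 45143 of 46078. Kept cells were thinned at random to 50000 reads. Variation was the residual of log2 squared coefficient of variation over a lowess trend (fraction 0.3) on log2 mean. Shares carry exact Clopper-Pearson 95% intervals. The components used log2(CPM + 1) of thinned counts, scaled. The variation and correlation code was tested on simulated data. Promoters came from the RefSeq table for GRCm38.p6, cut before the outermost annotated start.

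The members and gene lists were chosen with earlier results of these data known. The genes named were the 3 markers and gate genes, and the 25 most variable. Up to 6 members of each list with the highest shares, and those of highest and lowest variation, were added, as were the 3 highest and 2 lowest pairs of lists. Also named were the 5 nearest and 3 most opposite genes of Elane, Lcn2, Irf8, Mki67, Mcm5 and Fos (Cxcl10 was too sparse) and 8 genes at each end of 3 components. Chosen after values were seen were other list members, the 6 single cells with their genes, counts of cells with both genes, and the pairs Cd34 with Prtn3, Irf8 with Gfi1, and Elane with Lcn2, Irf8 and Hspa8. A few genes that the rule would name are not reported here. Software was statsmodels 0.14.6, matplotlib 3.10.9, scipy 1.17.1, pandas 2.3.3, numpy 2.4.6 and Python 3.11.15.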

Additional observations from a re-analysis of the deposited data

How the results depend on the processing

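With 1 set, results were recomputed under other settings and not tested. No paired analysis was possible because there is 1 day 10 set and no test. The share of cells with Lcn2 was 94.1% in the 51 cells with at least 200000 reads and 2000 genes, thinned to 200000 reads. That of Cxcl10 was 27.96% without thinning, and between 10.8% and 20.4% over 4 other random draws. Genes read in at least 50% of cells numbered 7012 without thinning and 7261 in the 51 deeper cells, so depth sets how many genes appear. The heat shock median was 0.21 with no covariate. Of the 25 most variable genes, 15 were shared in the 51 cells, 15 with a filter of 50% of cells, 7 with Pearson residuals, 21 with CPM of all reads, 18 with Slc34a2 and CT010467.1 removed and 91 cells thinned to 25000 reads, and 20 without the 6 single cells described above, a setting added after seeing the data. Each list median and pair was compared with its first value under each other setting. Of these comparisons 142 of list medians moved by less than 0.1 and 1 by more. Many list medians were themselves about 0.1 or smaller in size, so this limit says little about them. The stem median of 0.10, for example, ranged between 0.08 and 0.16. For single pairs 350 comparisons moved by less than 0.1 and 35 by more, and 0 values changed sign where the first value was at least 0.1 in size. Without the 6 cells the granule median was 0.35 and the monocyte median 0.38. In the 51 deeper cells Irf8 with Cebpe was −0.72 and Cd34 with Prtn3 was −0.65.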

Other observations

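The metabolic and growth lists gave these values in the day 10 GMPs. Of 18 glycolysis and glucose transport genes 16 were read in at least 20% of cells, and the lactate dehydrogenase gene Ldha (median 80 reads, highest 254) and the aldolase gene Aldoa (median 57, highest 119) were read in all 93. The median correlation over their 120 pairs was 0.09. Of 24 ribosome biogenesis genes 23 passed the same filter, and the transcription factor gene Myc was read in 87 cells (median 15, highest 53). Mitochondrially encoded genes summed to between 190 and 5348 reads per cell with a median of 1286, and mt-Nd4 with mt-Cytb stood at 0.52. Of the D cyclins, which drive entry into the cycle, Ccnd2 was read in 85 cells, Ccnd3 in 84 and Ccnd1 in 21, while the inhibitor genes Cdkn1c and Cdkn2a had 0 reads in all cells.

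Among the receptors, the interferon gamma receptor chain Ifngr1 was read in all 93 cells (median 34, highest 107), while Csf2rb, the shared chain of the GM-CSF receptor, was read in 79 (median 4, highest 46). The chemokine gene Ccl9 was read in 87 cells (median 32, highest 119), and Ccl5 and Il6 had 0 reads. Spi1, the gene of PU.1, was read in 92 cells (median 14, highest 36) and stood at −0.15 relative to the variation trend, against 2.72 for Irf8.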
